A study of Mus musculus with 11 samples.

Results

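The nuclear receptors around the bile acid receptor FXR and its partner SHP were examined in whole-liver RNA-seq. Members were taken by gene symbol: FXR (*Nr1h4*), SHP (*Nr0b2*), LRH-1 (*Nr5a2*), HNF4A (*Hnf4a*), PXR (*Nr1i2*), CAR (*Nr1i3*), PPARA (*Ppara*), RXRA (*Rxra*), LXR alpha (*Nr1h3*) and LXR beta (*Nr1h2*). All 10 symbols were found among the 46603 genes of the count table, and all 10 passed the filter on low counts that left 13880 genes for testing. The livers came from male B6.V-Lep ob/JRj (*ob/ob*) mice, which make no functional leptin, started at 5 to 6 weeks of age on the AMLN diet, rich in fat with trans-fat, fructose and cholesterol. Every mouse had a baseline liver biopsy and was housed alone afterwards, and only mice with steatosis and fibrosis in that biopsy went on to treatment. INT-767, a semisynthetic bile acid analog that activates FXR and the membrane receptor TGR5, was given by oral gavage at 10 mg/kg once daily for 8 weeks (n = 4), and vehicle, 0.5% carboxymethyl cellulose, to the controls (n = 7). No group of lean or chow-fed mice entered the comparison, so that all values describe diseased livers with and without the drug. Each library was made from the left lateral lobe of 1 mouse, and total counts were between 7966963 and 15295230 in vehicle-treated mice and between 7381211 and 16022459 in INT-767–treated mice.

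FXR is a transcription factor that bile acids bind and switch on. In hepatocytes it pairs with RXRA, the common partner of most receptors described here, and turns on SHP, an unusual family member with no DNA-binding domain that sits on other receptors and represses them. LRH-1 and HNF4A hold bile acid synthesis genes on and are the classical partners that SHP silences, while PXR, CAR, PPARA and the LXR pair sense foreign compounds, fatty acids and oxysterols.

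The promoter of *Nr0b2* is shown because this gene rose most among the members, and that of *Nr1h4* because it encodes the receptor of the drug. Each sequence holds the 250 bases before the RefSeq start site in GRCm38.p6, read 5′ to 3′ on the gene's strand. Capitals mark matches to AGGTCA, the core element of most nuclear receptors, to its variant GGGTCA and to TCAAGG, the core of the LRH-1 element, searched on both strands together with AGGTCANTGACCT, the inverted repeat bound by FXR and RXRA.
Nr0b2, chr4:133553126-133553375, plus strand: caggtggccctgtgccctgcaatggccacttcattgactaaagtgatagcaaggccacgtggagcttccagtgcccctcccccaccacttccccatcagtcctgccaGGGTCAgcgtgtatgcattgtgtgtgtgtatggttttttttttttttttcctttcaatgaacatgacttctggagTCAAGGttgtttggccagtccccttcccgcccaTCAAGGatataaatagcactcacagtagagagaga
Nr1h4, chr10:89506659-89506908, minus strand: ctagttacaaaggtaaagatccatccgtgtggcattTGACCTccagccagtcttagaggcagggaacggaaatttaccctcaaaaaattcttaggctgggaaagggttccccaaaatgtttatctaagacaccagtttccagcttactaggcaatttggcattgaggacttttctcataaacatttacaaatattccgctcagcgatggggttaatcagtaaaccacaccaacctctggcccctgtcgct

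The *Nr0b2* window held TCAAGG at 2 places, at −68 to −63 and −35 to −30 from the start site, and GGGTCA at −143 to −138. The letters TCAAGG were found in 12.5% of the 32851 mouse promoters of the same length and at 2 or more places in 0.922% of them. In the *Nr1h4* window, AGGTCA was found on the opposite strand (TGACCT) at −214 to −209, a match that 14% of promoters shared. Of the 14 promoters listed for the 10 members, 3 held AGGTCA, 3 held GGGTCA, which occurred in 11.6% of all promoters, and 1 held TCAAGG. The inverted repeat was in none of the 14 and in 2 of all 32851. No match overlapped another, and a match describes letters, not binding.

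In 4 libraries long transcripts were represented less than short ones, relative to the mean over all mice. The cut at 0 that marks these libraries was chosen after the data had been seen. For each library the median deviation of genes in the highest decile of transcript length (at least 6673 bases) was set against that of the lowest decile (at most 1348 bases). The log2 difference was −0.37 in vehicle mouse 1, −0.29 in vehicle mouse 7, −0.83 in INT-767 mouse 2 and −0.99 in INT-767 mouse 4. It was between 0.230 and 0.698 in vehicle mice 2 to 6, and 0.211 and 0.095 in INT-767 mice 1 and 3. The fold change of each of the 10 members without the 4 mice below 0 is therefore given too. In that comparison of vehicle mice 2 to 6 with INT-767 mice 1 and 3, both treated mice were still below every vehicle mouse. Leaving out the 4 libraries therefore did not make the groups equal in this difference. The GC content of transcripts gave a like difference, between the highest decile (at least 57.6%) and the lowest (at most 41.1%). It was −0.091, −0.63, −0.15 and −0.72 in INT-767 mice 1 to 4. With vehicle it was −0.68 in mouse 1, −0.11 in mouse 7 and between 0.045 and 0.70 in mice 2 to 6. Over the tested genes, the Spearman correlation of the log2 fold change was −0.30 with GC content and −0.24 with transcript length. The labels and methods name no batch that would separate the 4 libraries.

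Levels are given as CPM, the counts of a library scaled to a common total with TMM factors. Of the 10 members, 2 were called higher in INT-767–treated mice and 0 lower, at a Benjamini-Hochberg adjusted p under 0.05 in edgeR's quasi-likelihood test. Across all tested genes, 5.04% were called higher and 4.68% lower (9.72% in either direction). The members called were *Nr0b2* and *Nr1i2*, and *Nr0b2* alone separated the groups with no overlap between mice, as did 3.87% of all tested genes in this direction, 3.65% in the other and 7.51% in either. The median log2 fold change was 0.13 over the members and −0.01 over all tested genes. That of the members lay between 0.030 and 0.27 with 1 mouse left out and was −0.065 when libraries were scaled by size only. The summed level of the members was 1491 ± 279 CPM (SD, n = 7) with vehicle and 1496 ± 235 CPM (SD, n = 4) with INT-767.

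**Figure D1:**
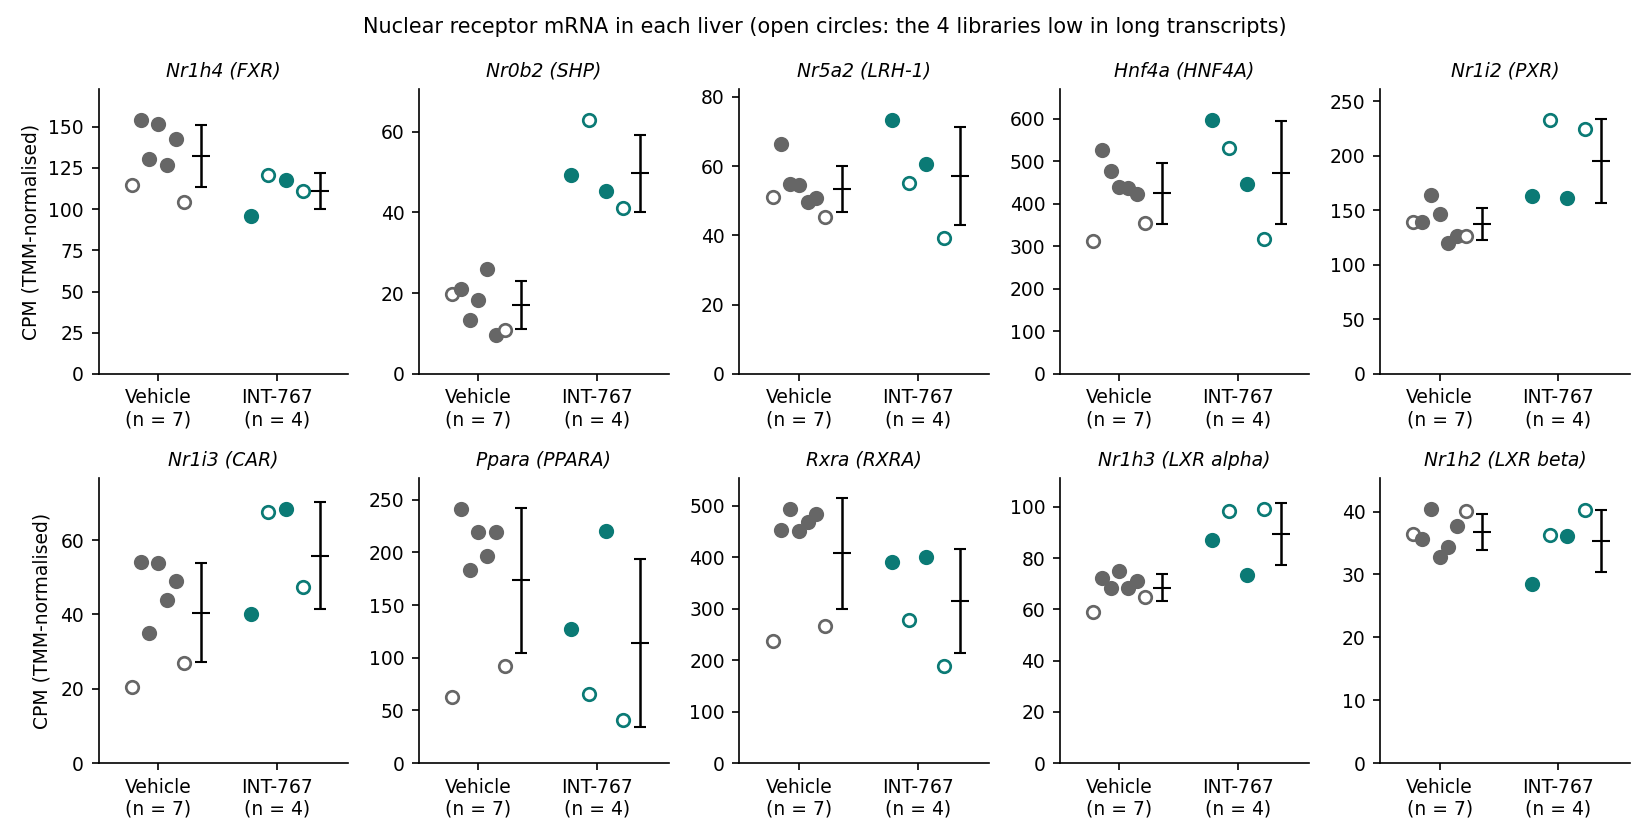
CPM of the 10 nuclear receptors in each of 7 vehicle-treated and 4 INT-767–treated mice, with the group mean and SD as bars at the right of each group. Open circles are the 4 libraries low in long transcripts; every INT-767 value of *Nr0b2* (41.1 to 63.0 CPM) lies above every vehicle value (9.74 to 26.0 CPM).

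FXR itself was not called different. *Nr1h4* (ENSMUSG00000047638, chromosome 10, 89454234 to 89533585, minus strand, 10 exons in its longest transcript) had 114, 154, 130.2, 152, 127, 143 and 104 CPM in vehicle mice 1 to 7 and 95.6, 121, 117 and 111 CPM in INT-767 mice 1 to 4. The INT-767 values all lay below the vehicle median of 130.2 CPM, but 3 of the 4 were inside the vehicle range. The means were 132 ± 18.7 and 111 ± 11.1 CPM, and the log2 fold change was −0.25 (SE 0.145, 95% confidence interval −0.56 to 0.063, adjusted p = 0.232). Vehicle mice 1 and 7, both low in long transcripts, had the lowest vehicle values, and without the 4 libraries the log2 fold change was −0.40 (adjusted p = 0.1). An offset that takes the dependence on GC content and transcript length out of each library was also used. With this GC and length offset the log2 fold change was −0.36 (adjusted p = 0.125), and vehicle mice 1 and 7 remained the lowest of their group. Under all 22 alternatives the value stayed below 0, between −0.46 and −0.18, and it passed the threshold in 0 of them.

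SHP, the repressor that FXR turns on, was higher in every INT-767–treated mouse. *Nr0b2* (ENSMUSG00000037583, chromosome 4, 133553376 to 133556536, plus strand, 2 exons) had 19.9, 21.1, 13.4, 18.3, 26.0, 9.74 and 11 CPM with vehicle and 49.3, 63.0, 45.2 and 41.1 CPM with INT-767. The lowest treated mouse stood above the highest vehicle mouse, and the 2 treated libraries low in long transcripts (mice 2 and 4) were the highest and the lowest of their group. The mean rose from 17.1 ± 5.92 to 49.7 ± 9.50 CPM, a log2 fold change of 1.54 (SE 0.251, 95% confidence interval 0.997 to 2.08, adjusted p = 0.00474). Without the 4 libraries the log2 fold change was 1.42 (adjusted p = 0.0156). These means rested on 120 to 358 reads per vehicle library and 321 to 776 per INT-767 library.

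SHP was also set against the receptor that regulates it. Per length, as CPM per kilobase of exon (RPKM), the ratio of *Nr0b2* to *Nr1h4* was 0.265 ± 0.0942 with vehicle (n = 7) and 0.913 ± 0.167 with INT-767 (n = 4), ranging from 0.139 to 0.417 and from 0.754 to 1.06. Against *Nr5a2*, which encodes the partner LRH-1, the ratio of *Nr0b2* was 1.67 ± 0.582 with vehicle and 4.70 ± 1.196 with INT-767, from 0.997 to 2.73 and from 3.50 to 5.97. Neither ratio overlapped between the groups, but *Nr0b2* alone already separated them, so the ratios are not a separate result.

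The partners of SHP did not differ beyond the spread between mice. *Nr5a2* (ENSMUSG00000026398, chromosome 1, 136842571 to 136960448, minus strand, 9 exons) had 51.1, 66.5, 54.8, 54.7, 49.7, 50.9 and 45.4 CPM with vehicle and 73.5, 55.0, 60.5 and 39.3 CPM with INT-767. The treated group held both the highest and the lowest of the 11 values. Its log2 fold change was 0.099 (SE 0.168, 95% confidence interval −0.26 to 0.46, adjusted p = 0.688). It was 0.29 (adjusted p = 0.216) without the 4 libraries, and the sign turned when libraries were scaled by size only (−0.087) or when INT-767 mouse 1, the highest, was left out (−0.044).

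HNF4A, the receptor that maintains hepatocyte identity, had the highest mean of the members. *Hnf4a* (ENSMUSG00000017950, chromosome 2, 163506808 to 163572910, plus strand, 10 exons) had 314, 528, 476, 439.6, 438, 423 and 356 CPM with vehicle and 598, 531, 447 and 317 CPM with INT-767. In each group the lowest values belonged to libraries low in long transcripts (vehicle mice 1 and 7 and INT-767 mouse 4). The log2 fold change was 0.16 (SE 0.193, 95% confidence interval −0.26 to 0.57, adjusted p = 0.573). It was 0.19 (adjusted p = 0.467) without the 4 libraries, 0.41 (adjusted p = 0.0935) with the GC and length offset, and −0.042 when libraries were scaled by size only. With 1 mouse left out the extremes were 0.027 (INT-767 mouse 1 left out) and 0.30 (mouse 4 of the same group). *Rxra* was above *Hnf4a* in CPM in 4 of 7 vehicle mice, those numbered 3 to 6, whereas per length *Hnf4a* was above *Rxra* in 6 of 7.

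PXR, the sensor of foreign compounds and toxic bile acids that turns on *Cyp3a11*, was called higher by a narrow margin. *Nr1i2* (ENSMUSG00000022809, chromosome 16, 38248323 to 38294824, minus strand, 9 exons) had 139, 139.7, 164, 146, 120.4, 126 and 127 CPM with vehicle and 163, 233, 161 and 224 CPM with INT-767. All treated mice were above the vehicle median, yet INT-767 mice 1 and 3 lay below vehicle mouse 3, and the highest pair, mice 2 and 4, were the treated libraries low in long transcripts. The mean went from 137 ± 14.9 to 195 ± 38.5 CPM (log2 fold change 0.51, SE 0.149, 95% confidence interval 0.19 to 0.83, adjusted p = 0.0491). The call was lost without the 4 libraries (0.23, adjusted p = 0.333) and kept with the GC and length offset (0.59, adjusted p = 0.0231). It held in 5 of 22 alternatives.

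CAR, the sister receptor of PXR, could not be read cleanly. *Nr1i3* (ENSMUSG00000005677, chromosome 1, 171213970 to 171220701, plus strand, 7 exons) shares 74.9% of its exon bases with *Tomm40l* on the opposite strand, and 58.1% of its 75-base windows occur in that gene's transcripts, so that counting without strand could not assign those reads. Its CPM were 20.4, 54.1, 34.9, 53.8, 43.8, 49.0 and 26.9 with vehicle and 40.0, 67.6, 68.4 and 47.3 with INT-767. The groups overlapped, with vehicle mice 1 and 7 lowest (log2 fold change 0.46, SE 0.266, 95% confidence interval −0.11 to 1.04, adjusted p = 0.231). The log2 fold change was 0.20 (adjusted p = 0.546) without the 4 libraries. *Tomm40l* itself held 62 to 205 counts per library, against 161 to 738 for *Nr1i3*.

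PPARA, which drives fatty acid oxidation, was the most variable member. *Ppara* (ENSMUSG00000022383, chromosome 15, 85734983 to 85802819, plus strand, 8 exons) had 62.8, 241, 183, 219, 196, 219 and 92.3 CPM with vehicle and 128, 66.1, 219.8 and 40.9 CPM with INT-767. The 4 lowest values of the 11 were the 4 libraries low in long transcripts, 2 in each group, and the highest vehicle value was 3.84 times the lowest. The log2 fold change was −0.61 (SE 0.455, 95% confidence interval −1.60 to 0.37, adjusted p = 0.345), and −0.28 (adjusted p = 0.362) without those libraries. Single mice moved it both ways, to −1.14 (adjusted p = 0.105) without INT-767 mouse 3 and to −0.34 (adjusted p = 0.656) without INT-767 mouse 4.

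RXRA was lowest in the same libraries as PPARA. *Rxra* (ENSMUSG00000015846, chromosome 2, 27676440 to 27762957, plus strand, 10 exons) had 236, 453, 494, 450.5, 468, 483 and 267 CPM with vehicle and 391, 278, 401 and 189 CPM with INT-767. The libraries low in long transcripts again gave the 4 lowest values, and the other 5 vehicle mice, from 450.5 to 494 CPM, were above the other 2 treated mice. The log2 fold change was −0.37 (SE 0.263, 95% confidence interval −0.94 to 0.20, adjusted p = 0.322). It was −0.24 (adjusted p = 0.285) without the 4 libraries and −0.036 (adjusted p = 0.897) with the GC and length offset. With 1 mouse left out the extremes were −0.50 (INT-767 mouse 3 left out) and −0.20 (mouse 4 of the same group). The part of this library property in the *Ppara* and *Rxra* values was not tested beyond these alternatives.

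**Figure D2:**
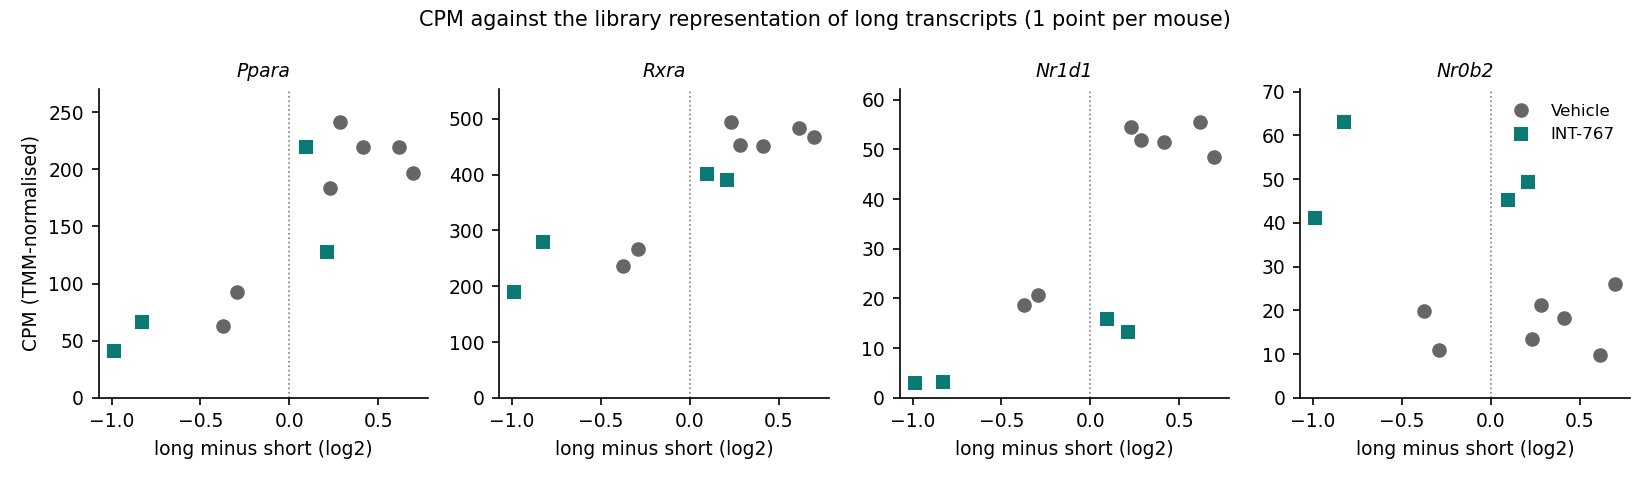
CPM of 4 genes against the log2 difference between long and short transcripts in the same library, 1 point per mouse (circles vehicle, squares INT-767; the dotted line marks 0). *Ppara* and *Rxra* are lowest in the 4 libraries left of the line, *Nr1d1* is lower within each group there, and *Nr0b2* separates the groups on either side of it.

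The LXR pair are oxysterol sensors that control cholesterol efflux and lipid synthesis, and neither was called. *Nr1h3* (LXR alpha, ENSMUSG00000002108, chromosome 2, 91184061 to 91202834, minus strand, 8 exons) had 58.8, 72.4, 68.5, 75.1, 68.6, 71.1 and 64.9 CPM with vehicle and 87.2, 98.3, 73.5 and 99.3 CPM with INT-767. The treated mice other than mouse 3 were above every vehicle mouse. The means were 68.5 ± 5.35 and 89.6 ± 12 CPM, and the log2 fold change of 0.39 (SE 0.126, 95% confidence interval 0.11 to 0.66) missed the threshold at an adjusted p of 0.0673. It passed in DESeq2 (adjusted p = 0.00984), with the GC and length offset (0.0331) and without INT-767 mouse 3 (0.0413), and was 0.19 (adjusted p = 0.354) without the 4 libraries. *Nr1h2* (LXR beta, ENSMUSG00000060601, chromosome 7, 44549616 to 44553951, minus strand, 10 exons) had 32.8 to 40.4 CPM with vehicle (median 36.4) and 28.5, 36.3, 36.0 and 40.2 CPM with INT-767. The group means were 36.8 ± 2.84 and 35.3 ± 4.93 CPM, and the log2 fold change was −0.062 (SE 0.13, 95% confidence interval −0.34 to 0.22, adjusted p = 0.747). It was −0.17 (adjusted p = 0.471) without the 4 libraries.

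**Figure D3:**
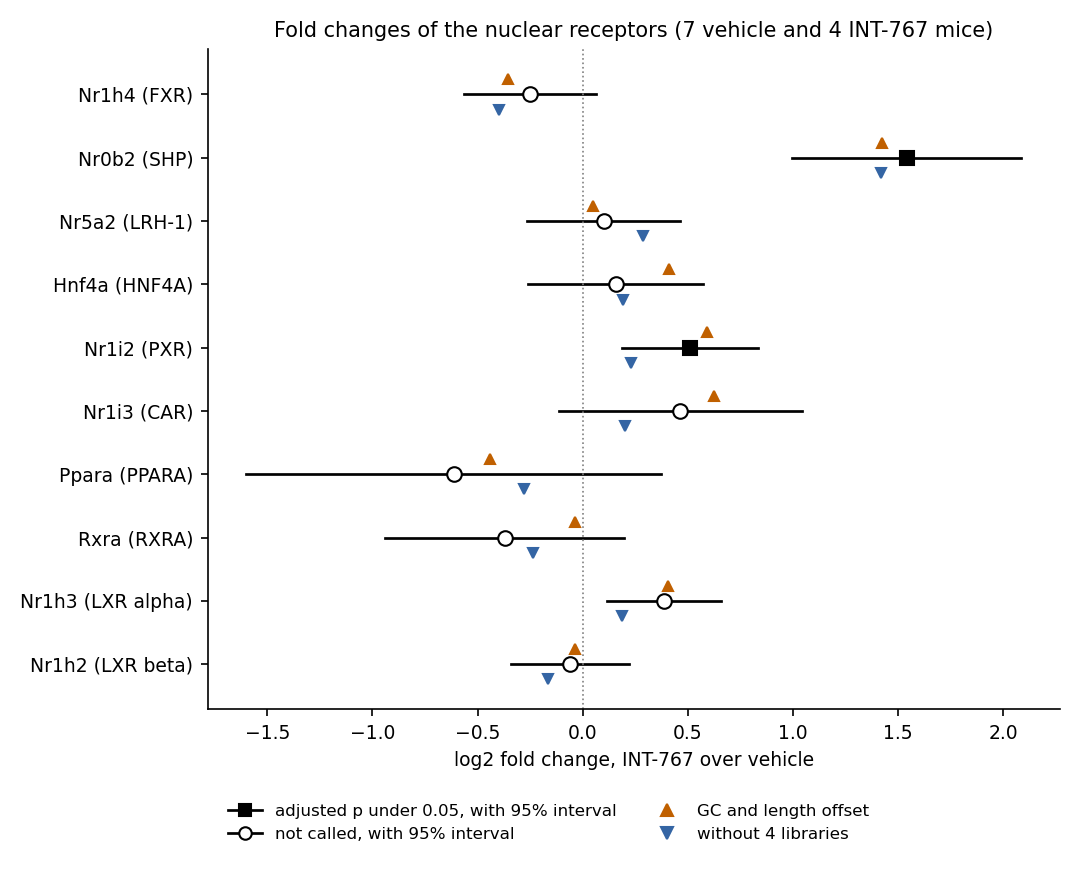
Log2 fold change of each receptor, INT-767 over vehicle, with its 95% interval; filled squares passed an adjusted p of 0.05. Triangles give the value with the GC and length offset (up) and without the 4 libraries low in long transcripts (down). *Nr0b2* stays at 1.42 under both, whereas *Nr1i2*, at 0.51, goes to 0.59 with the offset and to 0.23 without the 4 libraries.

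The receptors were then put in order of their mean level per length. In vehicle-treated mice the mean RPKM was 88.0 for *Hnf4a*, 74.6 for *Rxra*, 57.4 for *Nr1h4*, 53.8 for *Nr1i2*, 45.2 for *Ppara*, 27.2 for *Nr1h3*, 15.1 for *Nr0b2*, 11 for *Nr1h2*, 9.16 for *Nr1i3* and 9.03 for *Nr5a2*. Between neighbours in this order the vehicle ranges overlapped, except that *Nr1h3* was above *Nr0b2* in all 7 mice with separate ranges. With INT-767, *Nr0b2* moved from rank 7 to rank 5 at 43.9 ± 8.40 RPKM (SD, n = 4), above *Nr1h3* (35.6 ± 4.78) and *Ppara* (29.6 ± 20.8). It was above each of these in 3 of the 4 treated mice. *Nr1i2* came second at 76.6 ± 15.1 RPKM, but it was above *Rxra* only in INT-767 mice 2 and 4, at 91.3 against 51.0 and 87.8 against 34.7 RPKM, and below it in mice 1 and 3, at 64.0 against 71.6 and 63.1 against 73.4 RPKM. It was also above *Rxra* in vehicle mice 1 and 7, so that the libraries with this order were the 4 low in long transcripts. Without them *Rxra* stayed at rank 2 in both groups, *Nr1i2* was at rank 5 with vehicle and rank 3 with INT-767, and *Nr0b2* at ranks 7 and 6. *Hnf4a* was first in both groups, and *Nr5a2* last, except with INT-767 when the 4 libraries were left out. When the longest transcript was used as the length in place of all exon bases, *Nr1h2* (18.4 RPKM) ranked above *Nr0b2* with vehicle, and *Nr0b2* came to rank 6 with INT-767.

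**Figure D4:**
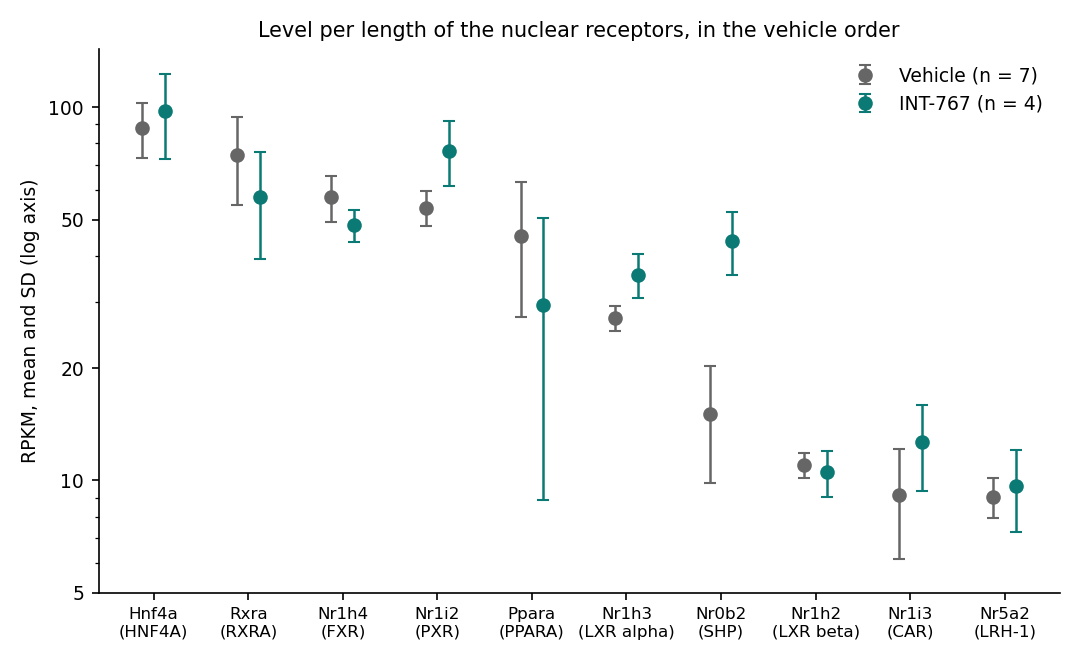
Mean RPKM (log axis) of the 10 receptors in vehicle-treated (n = 7) and INT-767–treated (n = 4) mice, with SD as bars, in the order of the vehicle means. *Nr0b2* stands at 15.1 RPKM with vehicle and 43.9 RPKM with INT-767, whereas *Nr1h2* stands at 11 and 10.5 RPKM.

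The members also differed in how much they varied among mice of a group. In vehicle-treated mice the SD on the log2 scale was lowest for *Nr1h2* (0.112) and *Nr1h3* (0.116) and highest for *Ppara* (0.746), *Nr1i3* (0.541) and *Nr0b2* (0.527). After the GC and length offset the vehicle SD of *Rxra* went from 0.445 to 0.224 and that of *Ppara* from 0.746 to 0.622. The vehicle SD of *Nr0b2* was 0.561 after the offset, so that it was not lower than before.

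The genes whose pattern over the 11 mice was most like that of *Nr0b2*, by the root mean square difference of centred log2 CPM among 8456 genes at 10 CPM or more, were *Tymp* (0.351), *Cyp2c38* (0.368) and *Lin7a* (0.374). For *Nr1h4* they were *Flcn* (0.123), *Srd5a3* (0.126) and *Tjp3* (0.130). A smaller value means a closer pattern.

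Of 39 other nuclear receptors in the table, 28 passed the filter, of which 4 were called higher and 2 lower, against 9.72% of all tested genes in either direction, with a median log2 fold change of 0.16. With 1 mouse left out, 1 to 8 were called higher and 0 to 4 lower, with 1 and 0 without INT-767 mouse 2 and 8 and 4 without vehicle mouse 1, and the median lay between 0.024 and 0.23. The median was −0.050 when libraries were scaled by size only. No count was found in any mouse for *Nr0b1* (DAX1, the closest relative of SHP), *Nr2e3* and *Nr5a1* (SF-1, the closest relative of LRH-1), and 3 counts in a library would have been 0.187 to 0.406 CPM. The estrogen receptor *Esr1* had 17.0 to 29.5 CPM with vehicle and 35.1 to 48.8 CPM with INT-767 and was above every vehicle mouse in all 4 treated mice (log2 fold change 0.95, SE 0.173, adjusted p = 0.00785). In this direction 3.87% of all tested genes separated the groups. *Nr3c1*, the glucocorticoid receptor, rose from 107 ± 19.3 to 162 ± 16.4 CPM (0.60, adjusted p = 0.0329), and *Thrb*, the main thyroid hormone receptor of liver, from 35.7 ± 4.93 to 52.0 ± 7.07 CPM (0.54, adjusted p = 0.0352). Both calls were lost when libraries were scaled by size only, and leaving out 1 of the 11 mice at a time ended that of *Nr3c1* in 6 cases and that of *Thrb* in 8. In the mice left without the 4 libraries, *Esr1* had 1.05 (adjusted p = 0.00957) and *Nr3c1* 0.58 (adjusted p = 0.0438), and *Thrb* was not called (0.43, adjusted p = 0.0863).

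The receptors that fell were *Rarg* and *Nr1d1*. *Rarg*, a retinoic acid receptor, had 8.42 to 13.6 CPM with vehicle and 5.63 to 6.80 CPM with INT-767 (log2 fold change −0.83, SE 0.171, adjusted p = 0.0139), a call lost without INT-767 mouse 2 (−0.85, adjusted p = 0.053) and kept without the 4 libraries (−0.85, adjusted p = 0.0329). *Nr1d1* (REV-ERB alpha, a repressor of the circadian clock) had 18.8, 52.0, 54.6, 51.4, 48.6, 55.5 and 20.8 CPM with vehicle and 13.3, 3.18, 15.9 and 3.07 CPM with INT-767. Within each group its 2 lowest values belonged to the libraries low in long transcripts, and the groups did not overlap (−2.28, SE 0.515, adjusted p = 0.0204). In this direction 3.65% of all tested genes separated the groups. Without those 4 libraries the log2 fold change of *Nr1d1* was −1.84 (adjusted p = 0.00014), and without INT-767 mouse 2 alone it was −2.01 (adjusted p = 0.0837).

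Among 23 coactivators and corepressors of nuclear receptors, 2 were called higher and 0 lower by edgeR, against 9.72% of all tested genes in either direction. At an unadjusted p under 0.05 there were 2 higher and 4 lower, and DESeq2 called 2 higher and 2 lower, limma-voom 2 higher and 0 lower, and edgeR 2 higher and 1 lower without the 4 libraries. *Ppargc1a* (PGC-1 alpha), the fasting-induced coactivator of HNF4A and PPARA, had 11.6 to 18.1 CPM with vehicle and 23.1, 28.2, 31.5 and 30.7 CPM with INT-767 (log2 fold change 0.93, SE 0.154, adjusted p = 0.00496). *Nrip1* (RIP140), a corepressor, had 19.4 to 23.1 CPM with vehicle and 27.4 to 34.9 CPM with INT-767 (0.61, SE 0.12, adjusted p = 0.0115), a call lost with scaling by library size only (0.40, adjusted p = 0.0587) or without INT-767 mouse 2 (0.57, adjusted p = 0.0592). Both genes separated the groups, as did 3.87% of all tested genes in this direction. Over the whole list, 17 of 23 values were below 0, with a median of −0.42, which was −0.23 without the 4 libraries and −0.086 with the GC and length offset. With 1 mouse left out, the median lay between −0.64 and −0.26, and 1 to 2 coregulators were called higher and 0 to 3 lower. The most abundant, *Ncor1*, the corepressor scaffold, had a log2 fold change of −0.51 (adjusted p = 0.271), or −0.085 (adjusted p = 0.714) with the offset, and its 4 lowest values in those 4 libraries. Of 14 liver transcription factors outside the family, such as *Foxa2* and *Prox1*, 0 were called by edgeR, and their median was 0.23. At an unadjusted p under 0.05, 1 was higher and 2 were lower. DESeq2 called 1 higher and 1 lower, limma-voom 0, and edgeR 4 higher with the GC and length offset. The most abundant, *Cebpa*, ranged from 309.7 to 666 CPM with vehicle and from 367 to 1380 CPM with INT-767 (0.72, adjusted p = 0.169). Its log2 fold change was 0.0065 (adjusted p = 0.987) without the 4 libraries and between 0.21 and 0.95 with 1 mouse left out.

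Known target genes were then read beside the receptor that controls each. Of 12 FXR targets, 11 were tested and 5 were called higher and 0 lower, with a median log2 fold change of 0.75. Of all tested genes, 5.04% were called higher and 4.68% lower. *Slc51b*, a subunit of the basolateral bile acid exporter, had 0.487 to 2.98 CPM with vehicle and 12.3, 23.8, 6.05 and 15.8 CPM with INT-767 (3.43, SE 0.447, adjusted p = 0.00234). Its partner *Slc51a* was not tested, with 6 counts in all libraries together. *Abcb11*, the canalicular bile salt export pump, had 184 to 401 CPM with vehicle and 961, 1125, 524 and 563 CPM with INT-767 (1.64, SE 0.262, adjusted p = 0.00471). *Slc27a5*, a bile acid CoA ligase, rose from 468 ± 63.2 to 884 ± 332 CPM (0.92, adjusted p = 0.0201), a call lost without INT-767 mouse 2 (0.62, adjusted p = 0.0881) or without the 4 libraries (0.55, adjusted p = 0.0675). The most abundant of the list, *Apoa5*, an apolipoprotein of triglyceride-rich particles, rose from 1296 ± 279 to 3355 ± 1525 CPM (1.37, adjusted p = 0.0104; 0.84 without the 4 libraries, adjusted p = 0.0225), with 20.8% of its exon bases under a gene on the opposite strand. The call left over was *Sdc1*, a heparan sulfate proteoglycan (0.75, adjusted p = 0.0487), named after its value was seen, whose call was lost in 9 of the 11 cases with 1 mouse left out. Without the 4 libraries, 3 of the list were called higher, and the median was 0.55.

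**Figure D5:**
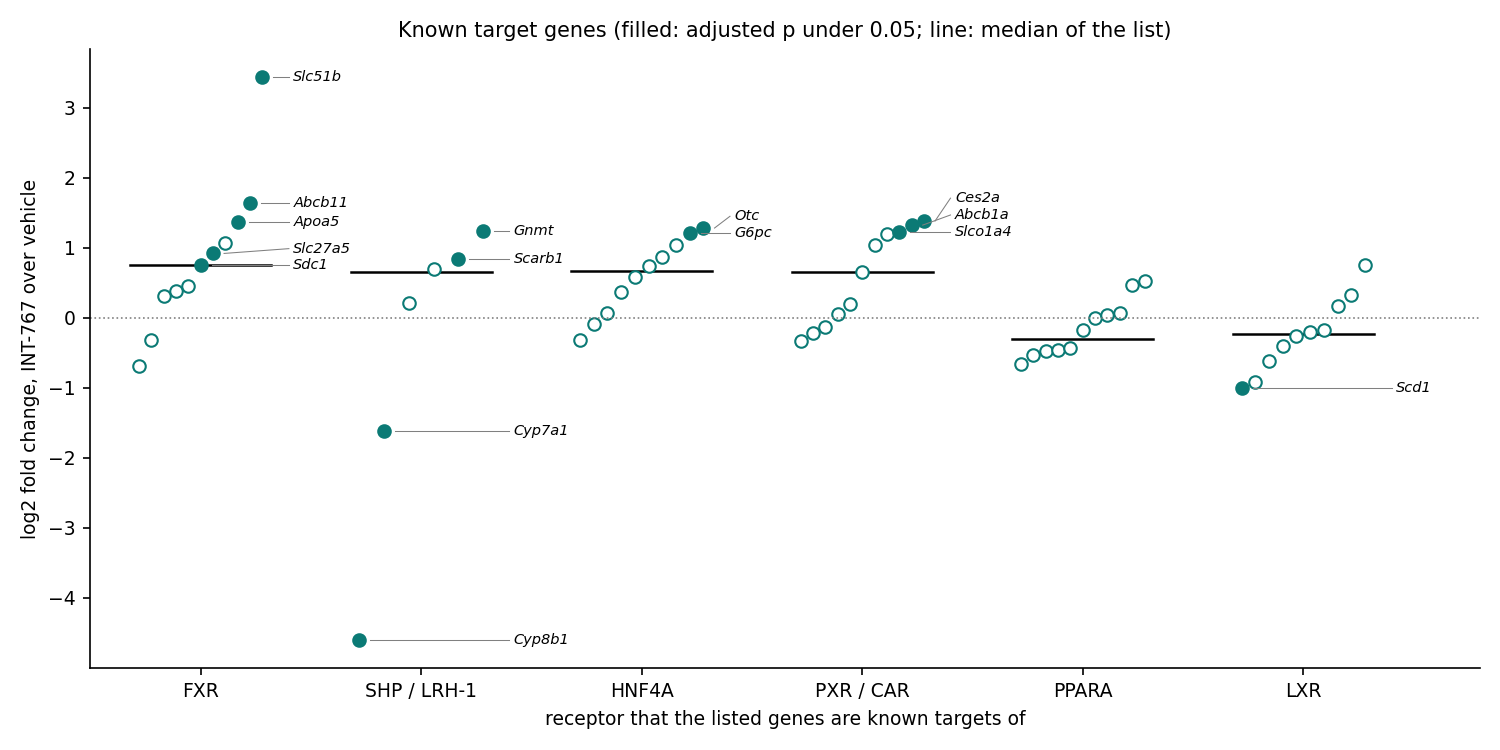
Log2 fold change, INT-767 over vehicle, of known target genes grouped by receptor, 1 point per gene, with a line at the median over all tested genes of each list, a few of which are not drawn. Filled points passed an adjusted p of 0.05 and are named; the medians run from −0.30 for PPARA targets to 0.75 for FXR targets.

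Genes that SHP and LRH-1 control went in opposite directions. *Cyp8b1*, the sterol 12-alpha-hydroxylase that LRH-1 and HNF4A keep on, had 80.4, 164, 135, 149, 109, 134 and 87.3 CPM with vehicle and 0.635, 2.49, 3.38 and 13.3 CPM with INT-767. The highest treated mouse was far below the lowest vehicle mouse (log2 fold change −4.60, SE 0.651, adjusted p = 0.00329). *Cyp7a1*, the rate-limiting enzyme of bile acid synthesis, had 251, 299, 66.2, 173, 172, 182 and 244 CPM with vehicle and 49.0, 56.0, 61.7 and 92.0 CPM with INT-767 (−1.62, SE 0.345, adjusted p = 0.0159). Vehicle mouse 3 lay inside the treated range for *Cyp7a1*, and the call was lost without the 4 libraries (−1.69, adjusted p = 0.081) or without INT-767 mouse 2 (−1.57, adjusted p = 0.0705), with fold changes close to that of all mice. Other LRH-1 targets that passed were higher: *Gnmt*, a glycine methyltransferase and the most abundant, from 529 ± 140.3 to 1246 ± 478 CPM (1.24, adjusted p = 0.015), and *Scarb1*, the HDL receptor, from 152 ± 14.7 to 271 ± 76.7 CPM (0.83, adjusted p = 0.0115). The value of *Scarb1* without the 4 libraries was 0.52 (adjusted p = 0.0302). In all, 3 of 7 were called higher and 2 lower, against 9.72% of all tested genes in either direction. Without INT-767 mouse 2, 0 were called higher by edgeR and 1 lower, with *Gnmt* at 0.95 (adjusted p = 0.0817) and *Scarb1* at 0.60 (adjusted p = 0.0522). In the 7 mice left without the 4 libraries, 2 of these genes were called higher and 1 lower.

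HNF4A targets had a median log2 fold change of 0.66, with 2 of 10 called higher and 0 lower, against 9.72% of all tested genes in either direction. *Otc*, a urea cycle enzyme, went from 242 ± 93.2 to 587 ± 205 CPM (1.28, adjusted p = 0.0199), and *G6pc*, the last step of glucose release, from 205 ± 38.7 to 474 ± 236 CPM (1.21, adjusted p = 0.0298). INT-767 mouse 3 had 156 CPM of *G6pc*, below every vehicle mouse, and the other 3 treated mice had 439 to 679 CPM. Without the 4 libraries *G6pc* was not called (0.49, adjusted p = 0.34), and the median of the list was 0.27 with 1 gene called higher. With 1 mouse left out the median lay between 0.44 and 0.84 and 0 to 4 genes were called higher. Without INT-767 mouse 2 neither *Otc* (1.06, adjusted p = 0.0929) nor *G6pc* (1.02, adjusted p = 0.13) was called, and leaving out 1 mouse at a time ended the call of *G6pc* in 6 of 11 cases. *Apob*, the most abundant, had a log2 fold change of 0.87 (adjusted p = 0.106). It was 0.52 (adjusted p = 0.25) without the 4 libraries and between 0.55 and 1.10 with 1 mouse left out.

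PXR and CAR targets had a median of 0.65, and 3 of 11 tested genes were called higher and 0 lower, against 9.72% of all tested genes in either direction. The median lay between 0.40 (without INT-767 mouse 1) and 0.90 with 1 mouse left out. *Ces2a*, a carboxylesterase, had 67.4 to 109 CPM with vehicle and 241, 327, 204 and 143 CPM with INT-767 (log2 fold change 1.38, SE 0.209, adjusted p = 0.00403). *Abcb1a*, a drug efflux pump, had 20.1 to 33.6 CPM with vehicle and 91.2, 71.6, 58.3 and 35.3 CPM with INT-767 (1.32, SE 0.221, adjusted p = 0.00528), although 17.1% of its 75-base windows are shared with *Abcb1b*. *Slco1a4*, an uptake transporter, went from 148 ± 44.4 to 346 ± 139 CPM with overlapping groups (1.23, adjusted p = 0.0242), a call lost in 4 of 11 cases with 1 mouse left out, among them INT-767 mouse 2 (1.01, adjusted p = 0.109). *Cyp3a11*, the marker enzyme of PXR and the most abundant of the list, had 2693 to 10199 CPM with vehicle and 6043, 16838, 6067 and 17756 CPM with INT-767 (1.2, SE 0.434, adjusted p = 0.088). Its highest value in each group came from libraries low in long transcripts. It passed without those 4 libraries (0.82, adjusted p = 0.0314) and in DESeq2 (1.2, adjusted p = 0.0385). *Cyp2b10*, the marker enzyme of CAR, was too low to test, with 52 counts over all libraries. Without the 4 libraries 6 of this list were called higher.

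Targets of PPARA and of the LXR pair had medians below 0. Of 12 PPARA targets 0 were called by edgeR, and their median log2 fold change was −0.30. At an unadjusted p under 0.05, 0 were higher and 2 lower, and DESeq2 called 1 lower and limma-voom 0. Their summed level was 8094 ± 956 CPM with vehicle and 6321 ± 828 CPM with INT-767. Of 10 LXR targets 0 were called higher and 1 lower, against 9.72% of all tested genes in either direction, with a median of −0.24 (−0.11 without the 4 libraries). At an unadjusted p under 0.05, 0 were higher and 3 lower, and DESeq2 called 3 lower, limma-voom 1 lower, and edgeR 2 lower when libraries were scaled by size only. With 1 mouse left out, 0 to 3 LXR targets and 0 to 2 PPARA targets were called lower, and the medians lay between −0.39 and −0.17 and between −0.36 and −0.18. *Scd1*, the stearoyl-CoA desaturase and the most abundant, had 22053 to 42585 CPM with vehicle and 15414, 8658, 15552 and 16060 CPM with INT-767 (−1.0, SE 0.247, adjusted p = 0.0283), beside a log2 fold change of 0.39 for *Nr1h3*. The *Scd1* call was lost with the GC and length offset (−0.83, adjusted p = 0.0672), without INT-767 mouse 2 (−0.84, adjusted p = 0.0955) and without the 4 libraries, where the value was smaller (−0.63, adjusted p = 0.0538).

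Since whole liver was sequenced, fewer cells of a type and less RNA per cell cannot be told apart. Calls among cell type markers stand beside 5.04% of all tested genes called higher and 4.68% lower. Hepatocyte markers were present in every mouse, with a summed level of 58085 ± 5763 CPM with vehicle and 83369 ± 21567 CPM with INT-767, and 0 of 5 measured were called by edgeR (median log2 fold change 0.24, or 0.40 without the 4 libraries). At an unadjusted p under 0.05, 2 were higher, and DESeq2 called 2 higher and limma-voom 0. *Alb*, the most abundant of them, had 37279 to 51570 CPM with vehicle and 37768 to 79704 CPM with INT-767 (0.57, adjusted p = 0.0891), and it passed in DESeq2 (0.58, adjusted p = 0.0266) and without the 4 libraries (0.67, adjusted p = 0.0496). Macrophage markers summed to 351 ± 46.2 and 267 ± 132 CPM, led by *C1qa*, and 2 of 7 were called lower: *Cd68* (−1.16, adjusted p = 0.00943) and *Csf1r* (−1.14, adjusted p = 0.00498). Of the 7 markers, 5 were called lower without the 4 libraries, *C1qa* among them (−0.63, adjusted p = 0.0171), and the median log2 fold change went from −0.55 to −0.98. In all mice *C1qa* was not called by DESeq2 (−0.21, adjusted p = 0.66) or limma-voom (−0.33, adjusted p = 0.446). With 1 mouse left out, *C1qa* lay between −0.74 and −0.028, and 2 to 4 macrophage markers were called lower. Stellate cell markers summed to 269.6 ± 95.8 and 208 ± 60.2 CPM, led by *Reln*, with *Pdgfrb* lower (1 of 6, −1.31, adjusted p = 0.0302). Myofibroblast markers summed to 474 ± 247 and 148 ± 78.7 CPM, with *Col1a1* lower (1 of 6, −2.96, adjusted p = 0.0297). The most abundant, *Col3a1*, had −1.40 (adjusted p = 0.0516) and was called by DESeq2 (−1.40, adjusted p = 0.00608) and limma-voom (−1.52, adjusted p = 0.0358), each of which called 2 of the 6 lower. The *Pdgfrb* and *Col1a1* calls were lost when INT-767 mouse 2 was left out, at −1.12 (adjusted p = 0.114) and −2.63 (adjusted p = 0.0946), and in 6 of 11 cases each with 1 mouse left out. Without the 4 libraries 3 myofibroblast markers were called lower, *Col3a1* among them (−1.71, adjusted p = 0.0352), while *Col1a1* itself had −2.94 (adjusted p = 0.0658).

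Markers of the other cell types gave 0 called genes in edgeR's test and 0 in limma-voom. DESeq2 called 3 cholangiocyte markers lower and 0 of the others. With the GC and length offset, edgeR called 2 cholangiocyte markers lower, *Spp1* among them (−0.86, adjusted p = 0.0474). *Spp1* was not called by DESeq2 (−0.44, adjusted p = 0.408) or without the 4 libraries (−0.46, adjusted p = 0.245). With 1 mouse left out it lay between −0.88 and −0.19. Without the 4 libraries, edgeR called 1 endothelial marker lower. At an unadjusted p under 0.05, 2 endothelial, 4 cholangiocyte and 1 lymphocyte marker were lower and 0 higher. Endothelial markers (6 tested, led by *Ptprb*) summed to 212 ± 55.1 CPM with vehicle and 157 ± 35.0 CPM with INT-767, cholangiocyte markers (6 tested, led by *Spp1*) to 1066 ± 466.3 and 779 ± 429 CPM, and lymphocyte markers (5 tested, led by *Cd79a*) to 6.28 ± 2.46 and 4.11 ± 0.743 CPM. None of the markers measured was at 0 in all mice. The hepatocyte sum and *Nr0b2* were both higher on average with INT-767, and in INT-767 mouse 4 the hepatocyte sum was 53632 CPM, against 50945 to 69375 CPM with vehicle. LXR alpha, which macrophages also express, had a log2 fold change of 0.39 while *Cd68* and *Csf1r* fell. Of the 7 macrophage markers, 6 had values below 0 and 1 was above it, at 0.53. The macrophage sum of INT-767 mouse 4 was 451 CPM, against 286 to 420 CPM with vehicle. The part of cell composition in the receptor values was not tested further.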

How the data were processed

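Liver mRNA of 11 mice was measured, 7 given vehicle and 4 given INT-767 per the labels. Stranded mRNA libraries were read for 75 cycles, and the authors aligned them to GRCm38. The supplementary methods and the submitters' processing notes name different versions of STAR (2.4.0 in the notes). For the counting program and its strand setting, no name was given in the sources used here. The authors deposited 1 table of raw read counts per gene, whole numbers with no normalization.

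In R 4.3.3, edgeR 4.0.16 was run with TMM scaling (factors 0.843 to 1.14), filterByExpr (minimum count 10, minimum total count 15), robust glmQLFit and glmQLFTest, with no covariate beside treatment. P-values were adjusted by Benjamini-Hochberg over 13880 genes (threshold 0.05). The standard error is the fold change over the root of F. At an unadjusted p under 0.05, 4573 genes passed. RPKM used GENCODE M21 exon lengths. The mice are separate animals. Intervals cover the spread between mice, and a limit of 3 counts for a count of 0 covers counting error only.

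On simulated data of this comparison (13880 genes, 200 given a log2 change of 2), edgeR recovered 96% and called 15 others, DESeq2 99% and 51, limma-voom 94% and 13.

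The members and gene lists were chosen with earlier results of these data known. Named genes were all members, up to 8 called other receptors, up to 4 called coregulators and liver factors, up to 4 called targets per list with its most abundant gene, called markers with the most abundant, markers at 0, and the 3 genes closest to *Nr0b2* and *Nr1h4*. Alternatives were RLE, upper-quartile and no scaling factors, 2 other filters, DESeq2 1.42.0, limma-voom (limma 3.58.1), a replicate block, an offset for GC content and length (lowess span 0.3), with and without the block, leaving out each mouse and, chosen after seeing the data, leaving out the 4 libraries low in long transcripts. Some genes chosen by this rule are not reported here. Motifs were chosen after the promoters had been read. Figures were drawn with matplotlib 3.10.9 in Python 3.11.15. The study's human, cell culture and histology data were not analysed here.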

Additional observations from a re-analysis of the deposited data

Results flagged for a closer look

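Of 102 groups of values checked (51 named genes in 2 groups), 4 held a sample far from the others, where chance gives about 1 in 20 groups. For *Scarb1*, INT-767 mouse 2 was high at 385 CPM, with the other treated mice between 227 and 243 CPM. For *Scd1*, the same mouse was low at 8658 CPM, against 15414 to 16060 CPM in the other treated mice. For *Rora*, vehicle mouse 1 was high at 181 CPM, with the next vehicle mouse at 128 CPM. For *Cd79a*, vehicle mouse 6 was high at 2.43 CPM, with the other vehicle mice between 0.759 and 1.25 CPM. None of the 10 members held such a sample in either group.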

How the results depend on the processing

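*Nr0b2* stayed above 0 under all 22 alternatives (1.34 to 1.67) and was called in 20. *Nr1i2* stayed above 0 and was called in 5. With library size only, the median of all genes was −0.22, and 331 genes were called higher and 1026 lower, against 700 and 649. DESeq2 called 1443 higher and 1368 lower, and the GC and length offset 1082 higher. Upper-quartile factors gave 467 higher and 812 lower. Members called higher were 1 with RLE, library size only, upper-quartile factors, either other filter, limma-voom or without the 4 libraries. *Nr1i2* then had 0.51 (adjusted p = 0.0503), 0.29 (0.141), 0.43 (0.071), 0.51 with no filter (0.0997), 0.43 with 10 counts in every mouse (0.0665), 0.49 (0.0584) and 0.23 (0.333). *Nr1h3* was called by DESeq2 (0.39) and with the offset (0.40). With library size only, *Nr5a2* was −0.087 and *Hnf4a* −0.042. *Ptprb* turned to 0.15 with the offset. The causes were not tested.

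Leaving out each mouse gave 164 to 1906 genes called higher and 110 to 1370 lower, and 1 to 3 members called higher (3 without INT-767 mouse 3). Genes higher and lower were 1906 and 1370 without vehicle mouse 1, 429 and 383 without 3, 375 and 392 without 4, 336 and 284 without 5, 306 and 267 without 6, and 164 and 110 without INT-767 mouse 2, and 461 were higher without INT-767 mouse 4. *Nr1i2* ranged from 0.40 to 0.60, *Nr1h3* from 0.32 to 0.48, *Nr5a2* from −0.044 to 0.24 and *Nr1h2* from −0.14 to 0.033. *Cd79a* ranged from −0.35 to 0.11, above 0 without vehicle mouse 6.

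Mice with the same replicate number shared only a number: the correlations of their deviations were −0.69, 0.22, 0.15 and −0.48. With the replicate block, whose estimate rests on the 4 numbers that both groups hold, 0 genes were called, with or without the offset, 0 members were called, and *Nr0b2* was 1.45 (adjusted p = 0.195), *Nr5a2* −0.021, *Nr1i2* 0.39 and *Cd79a* 0.035. With the offset and the block, *Nr0b2* was 1.34, *Nr5a2* −0.068, *Nr1i2* 0.45 and *Ptprb* 0.13.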
